A study of Rattus norvegicus with 6 samples.

Results

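The axon guidance ligands and receptors of the rat retina are described here: semaphorins with plexins and neuropilins, ephrins with Eph receptors, Slits with Robo receptors, and netrins with Dcc and Unc5 receptors. Members were chosen by symbol, ignoring case, and FPKM of rows sharing a symbol were summed. The patterns matched 71 rows, which gave 70 of the 19623 symbols in the table. The study set out to compare retinas of 3 groups of 2 samples, all taken at postnatal day 60 after surgery at day 21. They were Royal College of Surgeons (RCS) rats, whose photoreceptors degenerate, given a subretinal graft of human neural progenitor cells (RCShNPCs); RCS rats given the carrier medium (RCSsham); and pigmented wild-type Long Evans rats given the medium (LEsham). Only the grafted part of the neural retina, or its counterpart in sham eyes, was used, and the labels do not say whether samples are separate animals. The deposited table holds 1 FPKM value per gene (fragment numbers scaled to transcript length and to the mapped total) and names no sample. All values below therefore compare genes within 1 retinal profile, from 1 library or a pool, and no group is compared with another.

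Axon guidance ligands are proteins that attract or repel the growing tip of an axon, and each family acts through receptors on that tip. In the developing retina of mouse and chick, these families steer ganglion cell axons to the optic disc, across or away from the midline, and to their place in the target map. They also set the layers in which inner retinal neurites branch, and several of the same molecules pattern blood vessels. Many remain expressed in the adult nervous system.

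The FPKM range given in parentheses after a value is the deposited confidence interval. From it an implied number of fragments was computed, by taking each bound as 2 standard errors of a count. Among the 53 members with 200 implied fragments or fewer, this number was within 0.02 of a whole number for 49. The others were Epha5 (94.6), Epha7 (78.7), Ephb1 (164.5) and Sema6a (105.3). Ratio intervals of single genes use rounded fragments and are approximate for these genes. The intervals are read as counting error and say nothing of the spread between animals. A member at or near 0 may be low in every cell or made by few cells, and in bulk tissue these cannot be told apart.

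As a check of the tissue, all 8 photoreceptor markers were at 10 FPKM or more. Of these, Gnat1, Crx and Arr3, given as examples, stood at 6316, 192 and 39.4 FPKM. The 6 ganglion cell markers ranged from 3.12 to 144 FPKM, and the 4 Müller glia markers from 27.9 to 617 FPKM. The 4 bipolar cell markers ranged from 15.1 to 113 FPKM, the 4 amacrine markers from 21.1 to 181 FPKM and the 3 horizontal cell markers from 1.19 to 23.7 FPKM. Markers of other cells were uneven. Of the 3 lens markers, Cryaa, a crystallin gene, stood at 427 FPKM, while Lim2 and Mip stood at 1.81 and 1.60 FPKM. The 3 pigment epithelium markers ranged from 0.270 FPKM for Best1 to 20.7 FPKM for Rpe65, and the 5 endothelial and pericyte markers from 1.91 FPKM for Pecam1 to 52.2 FPKM for Kdr. Microglial markers lay at 1.37 to 4.12 FPKM (4 markers) and oligodendrocyte markers at 0.664 to 3.06 FPKM (3 markers). Of the 3 astrocyte markers, S100b stood at 23.6 FPKM and Gfap at 8.45 FPKM, and the transcription factor gene Pax2 was listed at 0. The part of these cells in the members' levels was not tested.

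All 70 members were above 0, as were 76.4% of all symbols. Of the members, 55 (78.6%) reached 1 FPKM, against 61% of all symbols and 79.9% of the symbols above 0. Since every member was above 0, that share is near the background. At higher levels the members' share was lower than that of all symbols: 19 of 70 members reached 5 FPKM, against 42.8% of all symbols, and 8 of 70 reached 10 FPKM, against 28.9% of all symbols. The members thus held a band of low to moderate levels: their median was 2.45 FPKM, against 3.17 FPKM over all symbols and 6.37 FPKM over the symbols above 0. Together they carried 0.0983% of the summed FPKM. Among ligands, 29 of 35 reached 1 FPKM, with a median of 2.83 FPKM; among receptors it was 25 of 34, with a median of 2.05 FPKM. Ordered by level within each side of a family, 23 of 59 neighbouring pairs of members differed beyond counting error. The order comes from the same values, and the intervals were not adjusted for their number. The count is thus a description and not a test. The remaining member, Unc50, belongs to neither side. It matched the pattern for Unc5 by its letters alone and encodes a Golgi protein that no guidance family includes. It stood at 21.5 FPKM (18.8 to 24.1) and was left out of the family sums.

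**Figure D1:**
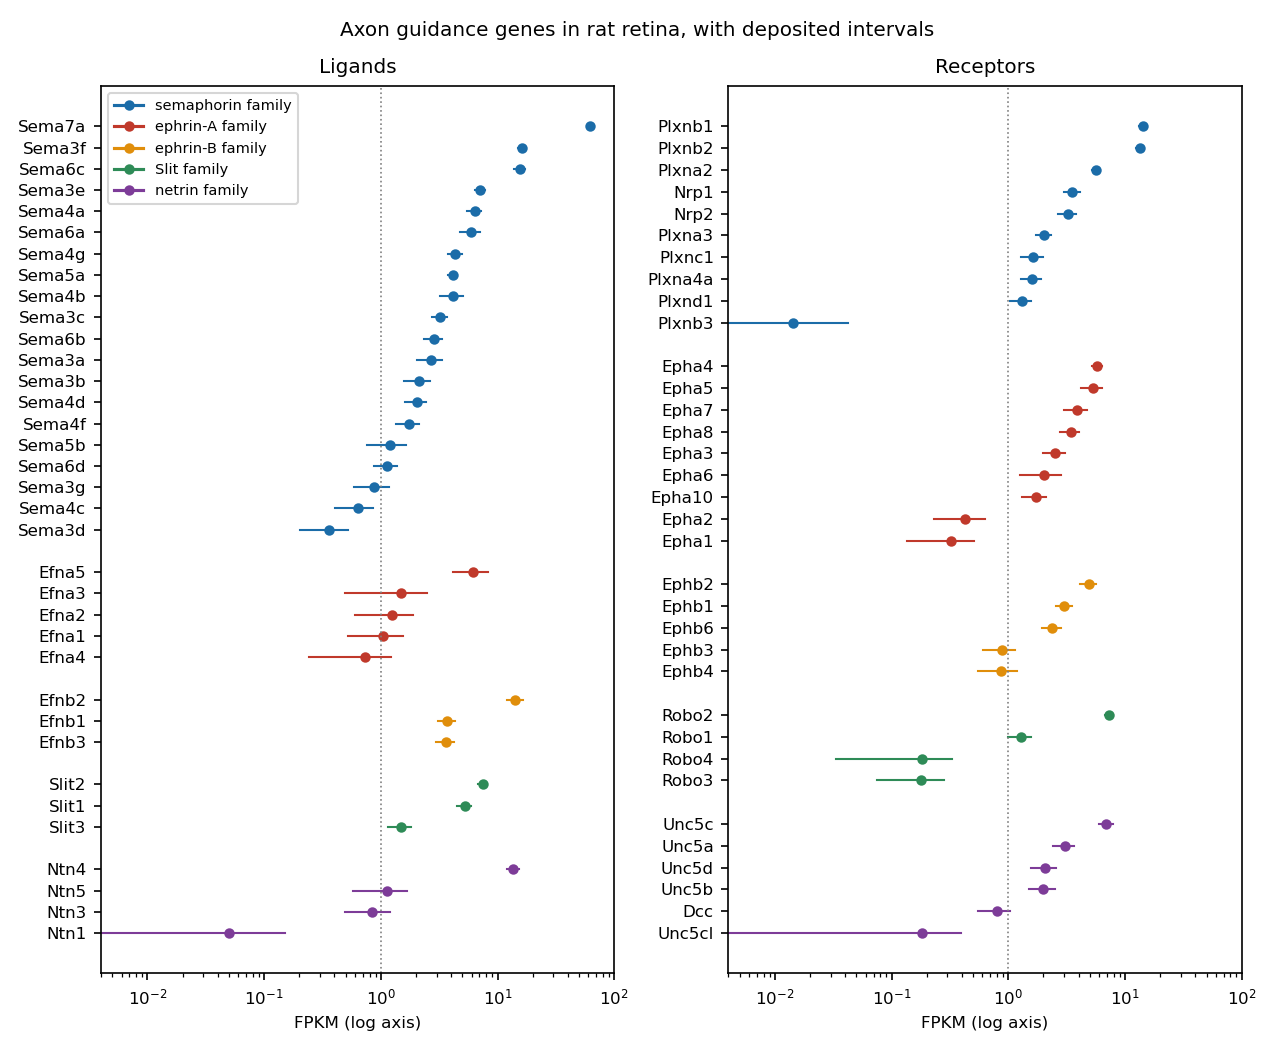
FPKM of each ligand (left) and receptor (right) on a log axis, coloured by family and ordered by level within it; lines are the deposited intervals, cut at the left edge where they reach 0, and the dotted line marks 1 FPKM. Sema7a stands apart at 62.3 FPKM, and Ntn1 and Plxnb3 stand far below the rest of their groups.

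Semaphorins had the highest summed FPKM of the ligand families, at 145 FPKM over 20 genes, and 1 gene made up much of it. By median the order was different: Slit ligands had a median of 5.21 FPKM, ephrin-B ligands 3.72 FPKM and semaphorins 3.04 FPKM. Sema7a, which encodes the only semaphorin held to the membrane by a lipid anchor and binds plexin C1 and integrins, was listed at 62.3 FPKM (59.5 to 65.2), on an implied 1857 fragments. Its row, ENSRNOG00000007687, covers bases 62499076 to 62521157 on chromosome 8 (rn5). It lay above 96.5% of all symbols and carried 43.0% of the FPKM of the 20 semaphorins. The next semaphorin was Sema3f, a secreted repellent that acts through neuropilin-2, at 16.3 FPKM (15.0 to 17.6). Sema7a was 3.82 times Sema3f, with a 95% counting interval of 3.50 to 4.18.

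The B plexins show how far apart close relatives can stand. Plxnb1, a receptor of Sema4d, was at 14.1 FPKM (13.3 to 15.0), and Plxnb2, a receptor of class 4 semaphorins, was at 13.3 FPKM (12.5 to 14.2). These were the highest receptors of all 34. Plxnb3 was listed at 0.0142 FPKM (0 to 0.0425), an implied 1 fragment, whereas Plxnb1 had 1073. The Plxnb3 row lies on chromosome 1 of rn5, while RefSeq places the gene on X in GRCr8. The same holds for Plxna3, which was at 2.02 FPKM on 178 fragments. The FPKM ratio of Plxnb1 to Plxnb3 was 999, with a counting interval of 179 to 39504. Plxnb1 and Plxnb2 did not differ beyond counting error (ratio 1.06, 0.974 to 1.16).

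The sequences around the starts of these genes are shown because Sema7a and Plxnb3 are the extremes of the families and the B plexins are paralogs with contrasting levels. Each is a RefSeq window of build GRCr8, from 250 bases before to 50 bases after the annotated gene start, on the strand of the gene. Capitals mark CG dinucleotides, the substrate of DNA methylation in mammals. The windows lie on chromosome 8 at 67244068 to 67244367 (plus strand) for Sema7a, and at 118622911 to 118623210 (plus strand) for Plxnb1. Those of Plxnb2 and Plxnb3 lie on chromosome 7 at 122137899 to 122138198 (minus strand) and on chromosome X at 156646624 to 156646923 (plus strand).
Sema7a: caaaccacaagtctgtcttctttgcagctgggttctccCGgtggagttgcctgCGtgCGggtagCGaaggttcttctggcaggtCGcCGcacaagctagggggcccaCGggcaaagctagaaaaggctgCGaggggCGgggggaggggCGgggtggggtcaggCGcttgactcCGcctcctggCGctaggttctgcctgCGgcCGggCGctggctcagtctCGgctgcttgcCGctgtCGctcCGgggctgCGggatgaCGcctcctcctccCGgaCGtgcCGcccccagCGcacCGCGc
Plxnb1: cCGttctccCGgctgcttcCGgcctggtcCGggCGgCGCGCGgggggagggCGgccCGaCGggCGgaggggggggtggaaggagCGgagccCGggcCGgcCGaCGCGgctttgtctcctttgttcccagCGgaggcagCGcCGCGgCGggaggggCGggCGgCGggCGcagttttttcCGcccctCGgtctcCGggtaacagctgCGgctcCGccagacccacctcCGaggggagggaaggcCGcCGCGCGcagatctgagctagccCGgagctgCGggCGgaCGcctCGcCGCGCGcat
Plxnb2: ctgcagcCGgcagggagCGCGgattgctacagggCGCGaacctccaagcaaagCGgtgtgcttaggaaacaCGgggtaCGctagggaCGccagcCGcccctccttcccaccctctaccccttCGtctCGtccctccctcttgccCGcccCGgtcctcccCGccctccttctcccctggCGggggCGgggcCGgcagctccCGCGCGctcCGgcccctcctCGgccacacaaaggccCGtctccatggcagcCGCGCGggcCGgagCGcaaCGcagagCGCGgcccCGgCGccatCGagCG
Plxnb3: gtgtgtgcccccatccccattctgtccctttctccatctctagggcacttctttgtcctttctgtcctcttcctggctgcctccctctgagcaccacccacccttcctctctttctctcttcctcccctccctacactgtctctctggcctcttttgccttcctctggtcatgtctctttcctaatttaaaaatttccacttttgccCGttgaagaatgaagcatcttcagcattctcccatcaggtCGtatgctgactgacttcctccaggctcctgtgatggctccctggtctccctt
The window of Sema7a held 28 CG dinucleotides in 300 bases, that of Plxnb1 45, that of Plxnb2 36 and that of Plxnb3 2. GC content was 69.7% for Sema7a, 77.3% for Plxnb1, 73.7% for Plxnb2 and 52% for Plxnb3. Whether retinal transcripts begin at these starts was not tested.

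Windows were found for 56 members, Unc50 included, and their CG content followed level in the same direction as in other genes. CG observed over expected had a median of 0.795 in the 14 members at 5 FPKM or more, 0.706 in 28 members between 1 and 5 FPKM, and 0.427 in 14 members under 1 FPKM. In symbols that are not members the medians at these levels were 0.806, 0.691 and 0.316. The last of these was taken without leaving out symbols at 0 FPKM, whereas every member was above 0. The gradient has the direction of the background, with lowest groups that are not matched, and is not read as a feature of guidance genes. Members at high level with few CG were Sema6c (2 in its window, 15.5 FPKM) and Sema4a (3 in its window, 6.36 FPKM).

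**Figure D2:**
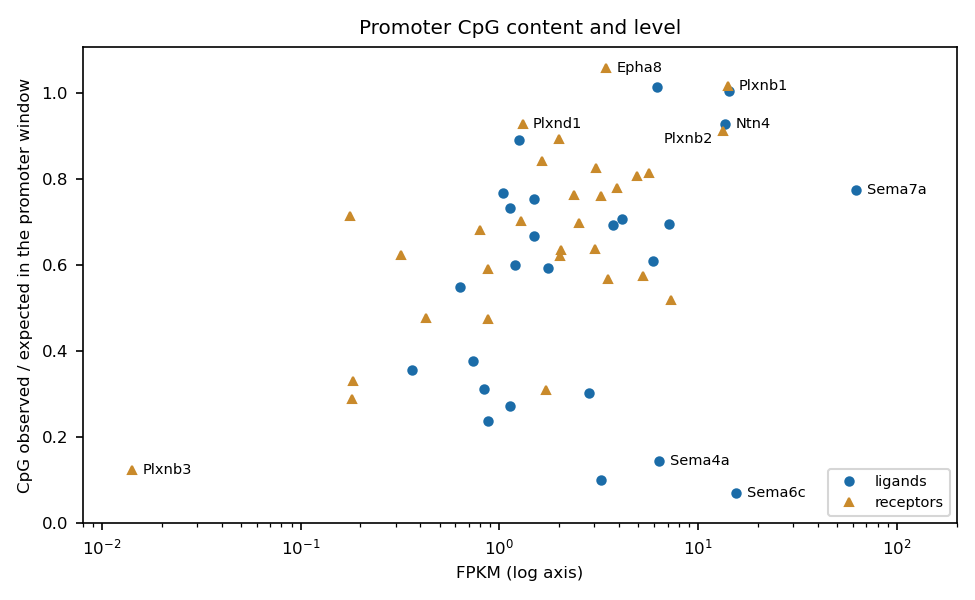
CpG observed over expected in the promoter window against FPKM (log axis) for ligands (circles) and receptors (triangles) with a RefSeq window. Unc50, which is neither, is not drawn. Plxnb3 is at the lower left with 2 CG in its window, Plxnb1 and Plxnb2 are at the upper right, and Sema6c and Sema4a combine higher FPKM with few CG.

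The other secreted semaphorins lay below Sema3f. Sema3e, which binds plexin D1 without a neuropilin and guides retinal vessels in mouse, was at 7.13 FPKM (6.39 to 7.87). Sema3c was at 3.24 FPKM, Sema3a, a repellent acting through neuropilin-1, at 2.69 FPKM, and Sema3b at 2.11 FPKM. Sema3g (0.878 FPKM) and Sema3d (0.362 FPKM, 21 fragments) were under 1 FPKM. The 7 class 3 genes summed to 32.7 FPKM.

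Transmembrane semaphorins of classes 4, 5 and 6 numbered 12 and summed to 50.0016 FPKM. Sema6c led them at 15.5 FPKM (13.8 to 17.3), within counting error of Sema3f (Sema3f to Sema6c ratio 1.05, 0.914 to 1.20). Sema4a, whose loss causes photoreceptor degeneration in mouse, stood at 6.36 FPKM (5.51 to 7.20). Sema6a, which directs sublayer targeting in the mouse inner plexiform layer, stood at 5.90 FPKM (4.75 to 7.05). In the fourth class, Sema4g was at 4.33, Sema4b at 4.14, Sema4d at 2.04, Sema4f at 1.74 and Sema4c at 0.632 FPKM. Sema5a and Sema5b, which in mouse confine neurites to the inner plexiform layer, were at 4.14 and 1.20 FPKM. Sema6b was at 2.83 and Sema6d at 1.13 FPKM. From Sema4g downwards, no semaphorin differed from the next in the order beyond counting error. Members further apart in that order did differ, as the intervals of Sema4g (3.75 to 4.92) and Sema3d (0.204 to 0.520) show.

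Below the B plexins, the semaphorin receptors lay between 1.31 and 5.63 FPKM. Plxna2, which binds Sema6a, was at 5.63 FPKM (5.20 to 6.06), Plxna3 at 2.02 FPKM and the row with the older symbol Plxna4a (RefSeq Plxna4) at 1.59 FPKM. Plxna1 had no row under that symbol and was not analysed here. Plxnc1, the plexin partner of Sema7a, was at 1.63 FPKM, and Plxnd1, a vascular receptor of Sema3e, at 1.31 FPKM. The neuropilins, which bind class 3 semaphorins and vascular endothelial growth factor, stood close together: Nrp1 at 3.53 FPKM (2.97 to 4.10) and Nrp2 at 3.24 FPKM (2.66 to 3.81), a ratio of 1.09 (0.858 to 1.39).

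Ephrin-A ligands were low, and the EphA receptors exceeded them in sum. Ephrin-A proteins are lipid-anchored, and their gradients with EphA receptors order the projection of retina to midbrain. Efna5 was at 6.19 FPKM (4.16 to 8.23) and carried 57.9% of the ephrin-A sum. Among the other 4, no member differed from the next lower one beyond counting error: Efna3 at 1.49 FPKM (0.496 to 2.48), Efna2 at 1.25, Efna1 at 1.04 and Efna4 at 0.733 FPKM. These rested on 9, 15, 16 and 9 implied fragments.

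Of the 9 EphA receptors, 7 (77.8%) reached 1 FPKM, against 61% of all symbols and 79.9% of those above 0, so this share is near the background. Epha4, which also binds ephrin-B ligands, was at 5.80 FPKM (5.25 to 6.36) and Epha5 at 5.28 FPKM (4.19 to 6.36), without a difference beyond counting error (ratio 1.10, 0.875 to 1.38). Epha7 followed at 3.89 FPKM (3.01 to 4.77), Epha8 at 3.43, Epha3 at 2.51, Epha6 at 2.03 and Epha10, which lacks kinase activity, at 1.72 FPKM. Epha2 (0.429 FPKM) and Epha1 (0.320 FPKM), both best known from epithelia, were the lowest. The step from Epha10 to Epha2 was the widest in this group, at 4.02-fold (2.40 to 7.04).

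In the ephrin-B class the balance was the other way. Efnb2, a transmembrane ligand that marks arteries and repels EphB1 axons at the mouse optic chiasm, was at 14.2 FPKM (11.99 to 16.4). Efnb1 stood at 3.72 FPKM (3.09 to 4.35) and Efnb3 at 3.59 FPKM (2.96 to 4.22), a ratio of 1.04 (0.811 to 1.33). Efnb2 was 3.81 times Efnb1 (3.03 to 4.81). Among receptors, Ephb2 led at 4.89 FPKM (4.12 to 5.65), ahead of Ephb1 at 3.02 FPKM (2.55 to 3.49) and the kinase-inactive Ephb6 at 2.38 FPKM (1.93 to 2.82). Ephb3 (0.875 FPKM) and Ephb4, the venous receptor of Efnb2 (0.874 FPKM), were under 1 FPKM.

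Slit proteins are secreted repellents, and in mouse Slit1 and Slit2 act through Robo2 to guide ganglion cell axons. Slit2 was at 7.43 FPKM (6.84 to 8.02), Slit1 at 5.21 FPKM (4.50 to 5.92) and Slit3 at 1.49 FPKM (1.16 to 1.83), and both steps were larger than counting error. Robo2 carried 81.6% of the receptor sum, at 7.29 FPKM (6.74 to 7.84), and was 5.68 times Robo1, at 1.28 FPKM (4.47 to 7.31 for the ratio). Robo3, a regulator of midline crossing, was at 0.178 FPKM on 12 fragments. Robo4, an endothelial receptor, was at 0.182 FPKM as a sum of 2 rows.

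The Robo4 sum needs care. Its rows carry the same FPKM (0.0908) and the same bounds, and each spans 9952 bases, at 39089745 to 39099696 and at 39879853 to 39889804 of chromosome 8 in rn5. The second lies 3.87 kb from the Robo3 row. Each implies 3 fragments, and whether the rows count the same fragments cannot be told from the table.

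Netrin levels rested on Ntn4, not on the classical attractant. Ntn4, a netrin of basement membranes, was at 13.6 FPKM (12.04 to 15.2) and carried 87.1% of the netrin sum. Ntn5 was at 1.13 FPKM (0.583 to 1.68) and Ntn3 at 0.839 FPKM (0.489 to 1.19). Ntn1, which guides ganglion cell axons into the optic nerve head in mouse embryos, was at 0.0504 FPKM (0 to 0.151), an implied 1 fragment. The ratio of Ntn4 to Ntn1 was 271, with a counting interval of 48.2 to 10728.

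Receptors of netrins were nevertheless measured. Unc5c, a receptor of the repulsive response, led at 6.89 FPKM (5.96 to 7.82), followed by Unc5a at 3.06 FPKM (2.43 to 3.69), Unc5d at 2.07 FPKM (1.56 to 2.57) and Unc5b at 2.001 FPKM (1.50 to 2.50). Dcc, the receptor of attraction, was at 0.794 FPKM (0.549 to 1.04) on 42 fragments. Unc5c was 8.68 times Dcc (6.22 to 12.4). Unc5cl, a death-domain relative that the pattern includes, was at 0.184 FPKM (0 to 0.396) on 3 fragments.

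Summed by family, ligands exceeded receptors in semaphorins, ephrin-B and Slit, and receptors exceeded ligands in ephrin-A. The sums of netrins and of Dcc with the Unc5 genes did not differ beyond counting error. That netrin sum was 87.1% Ntn4, and the other netrins summed to 2.02 FPKM. Whether Ntn4 acts through these receptors here was not tested, so the netrin sides may not be matched. The 20 semaphorins summed to 145 FPKM and the 10 plexins and neuropilins to 46.4 FPKM, a ratio of 3.13 (95% counting interval 2.99 to 3.27). The sides differ in number of genes, and the ratio of mean FPKM per gene was 1.56 for semaphorins, 0.758 for ephrin-A, 2.98 for ephrin-B, 2.11 for Slit and 1.57 for netrins. With class 3 semaphorins alone as ligands, set against all 10 plexins and neuropilins, the ratio of sums was 0.705. The sides are then not matched, since the receptor sum keeps plexins of other classes, and the B plexins alone summed to 27.5 FPKM.

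Ephrin-A ligands summed to 10.7 FPKM and EphA receptors to 25.4 FPKM, a ratio of 0.421 (0.332 to 0.534). Ephrin-B ligands summed to 21.5 FPKM and EphB receptors to 12.04 FPKM, a ratio of 1.79 (1.55 to 2.05). That excess rested on Efnb2, since without Efnb2 and Ephb2 the ratio was 1.02. For Slits against Robo receptors the sums were 14.1 and 8.93 FPKM, with a ratio of 1.58 (1.43 to 1.75), and 4.08 without Slit2 and Robo2. Netrins summed to 15.7 FPKM and Dcc with the Unc5 genes to 15.0 FPKM, a ratio of 1.04 (0.907 to 1.20), and 0.250 without Ntn4 and Unc5c. Neo1, which also binds netrins, is outside the patterns and not in this sum. At 19.2 FPKM it was above the whole receptor sum, so the ratio holds only for the receptors matched by symbol.

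**Figure D3:**
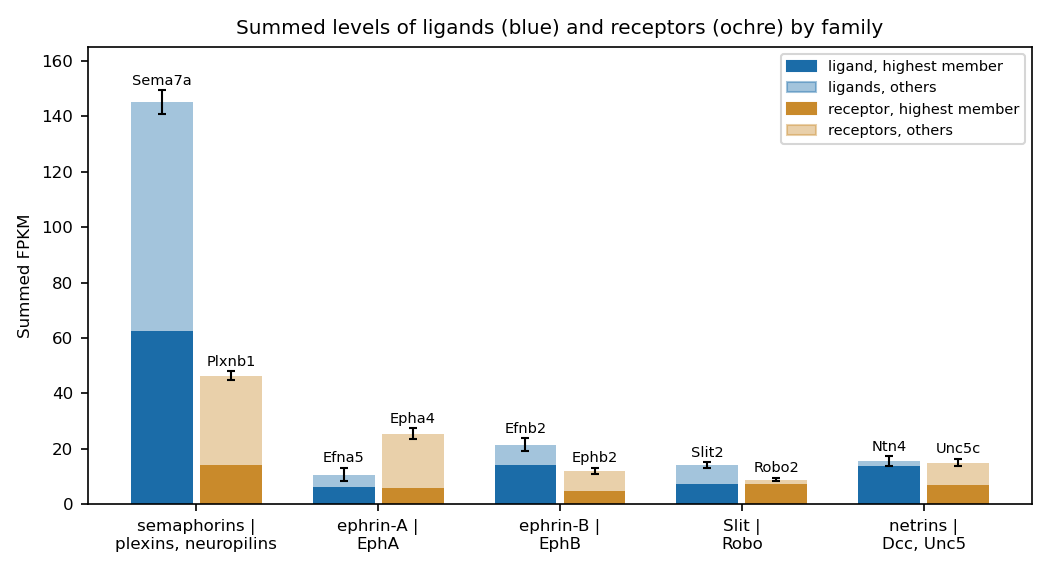
Summed FPKM of ligands (blue, left bar) and receptors (ochre, right bar) in each family; the dark part is the highest member, named above the bar, and whiskers are the summed counting interval. Sema7a alone makes up 43.0% of the semaphorin bar and Ntn4 87.1% of the netrin bar, and EphA receptors exceed ephrin-A ligands.

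Equal FPKM did not mean equal evidence. At the same FPKM, a transcript annotated as longer yields more fragments. The annotated lengths were not examined here. Sema5a at 4.14 FPKM rested on 525 fragments, whereas Efna5 at 6.19 FPKM rested on 37. Efna3 and Efna5 gave about 6 fragments per FPKM (6.05 and 5.98), against 127 for Sema5a and 123 for Plxna2. In fragments, the ephrin-A to EphA ratio was 0.0908 and the ephrin-B to EphB ratio was 0.854, which reverses the FPKM order in ephrin-B. Fragment numbers are not divided by transcript length, and FPKM is the scale on which genes are compared here.

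**Figure D4:**
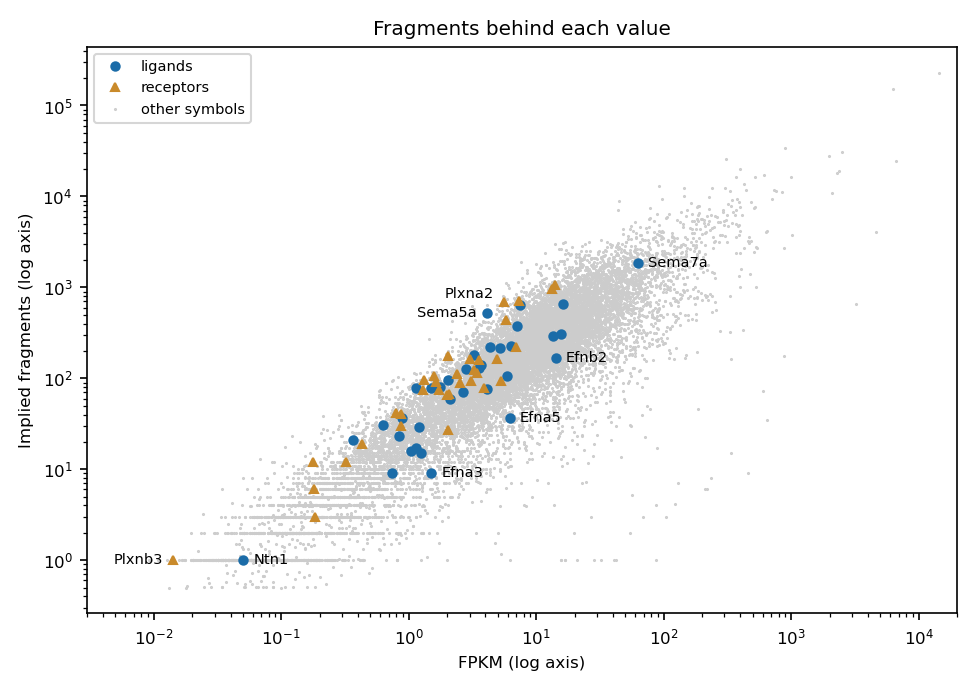
Implied fragments against FPKM (both log axes) for ligands (circles), receptors (triangles) and the other symbols of the table (grey; symbols at or under 0.001 FPKM or under 0.5 fragments are not drawn). Efna3 and Efna5 lie low for their FPKM and Sema5a and Plxna2 high, and Ntn1 and Plxnb3 lie at 1 fragment.

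Ligands were set beside receptors that they bind, or that they act through together with a neuropilin, as Sema3f with Plxna3 and Sema3a with Plxna4a. Of 24 listed pairs, 22 had both partners in the table. The ligand was higher beyond counting error in 9, the receptor in 8, and the interval of the ratio included 1 in 5. Sema7a to Plxnc1 was the most uneven towards the ligand, at 38.1 (30.9 to 47.6). Efnb2 to Ephb4 followed at 16.2 (11.0 to 24.8), then Sema3f to Plxna3 at 8.08 (6.84 to 9.59) and to Nrp2 at 5.04 (4.16 to 6.15). Sema3e to Plxnd1 was 5.45 (4.34 to 6.90), Slit2 to Robo1 was 5.79 (4.55 to 7.46) and Efnb2 to Ephb1 was 4.69 (3.75 to 5.84). Sema6a and Sema3a were 3.72 (2.81 to 4.90) and 1.69 (1.23 to 2.31) times Plxna4a.

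On the receptor side, Ntn1 was lower than Unc5c, Unc5b and Dcc, with ratios of 0.00731, 0.0252 and 0.0635. On 1 fragment of Ntn1 these intervals were wide: 0.000184 to 0.0411, 0.000628 to 0.145 and 0.00157 to 0.373. Sema4c to Plxnb2 was 0.0475 (0.0321 to 0.0678) and Sema4d to Plxnb1 was 0.144 (0.116 to 0.178). Sema5b to Plxna3 (0.596), Slit1 to Robo2 (0.715) and Efnb1 to Ephb2 (0.761) were nearer to 1. The pairs whose intervals included 1 were Slit2 and Robo2 (1.02, 0.915 to 1.14), Sema6a and Plxna2 (1.05, 0.842 to 1.28), Efna5 and Epha5 (1.17, 0.777 to 1.72), Sema3a and Nrp1 (0.760, 0.565 to 1.01), and Efna2 and Epha6 (0.614, 0.304 to 1.20). The Slit2 and Robo2 interval is the narrowest of these. The pairs share members, so they are not independent of one another, and RNA levels in a mixed tissue do not show whether both partners meet.

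**Figure D5:**
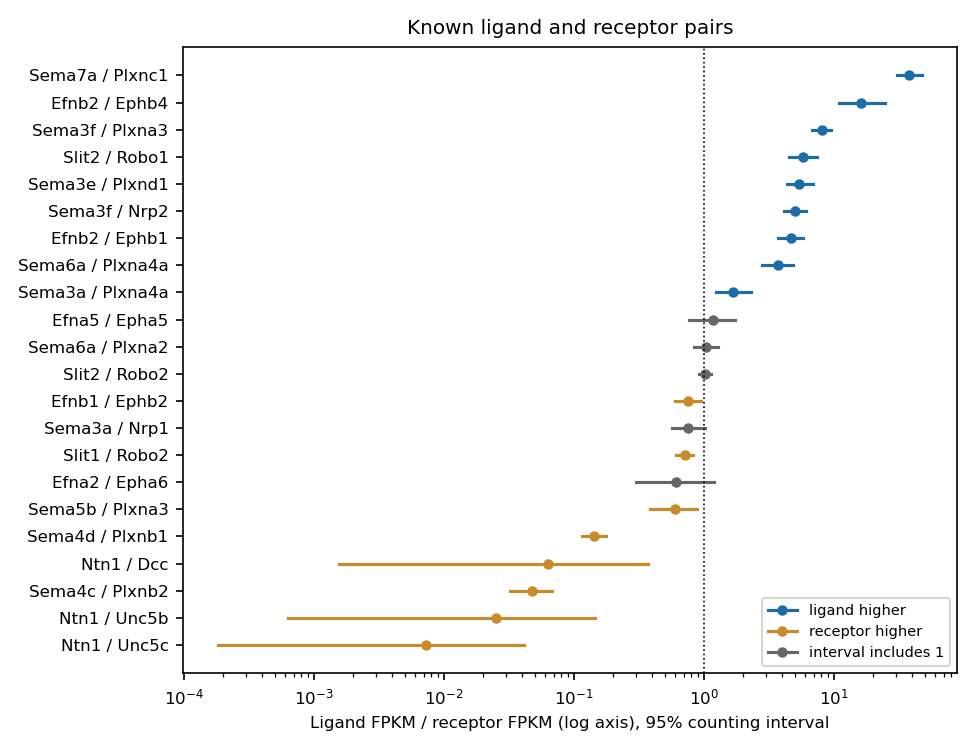
Ratio of ligand FPKM to receptor FPKM (log axis) for pairs that bind or that act together with a neuropilin, with exact 95% counting intervals. Blue marks pairs with the ligand higher, ochre the receptor higher, and grey an interval that includes 1. Ratios run from 38.1 for Sema7a to Plxnc1 down to 0.00731 for Ntn1 to Unc5c.

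Among rows of members that follow each other in rn5, 13 pairs lay within 1 Mb, and some are given here. Other genes may lie between them. Levels differed within some of these pairs. Sema3b and Sema3f lie 77.9 kb apart on chromosome 8, at 2.11 and 16.3 FPKM, a Sema3f to Sema3b ratio of 7.73 (5.92 to 10.2). Sema3e, Sema3a and Sema3d, with gaps of 579 and 815 kb on chromosome 4, were at 7.13, 2.69 and 0.362 FPKM. By contrast, Efna1, Efna3 and Efna4, which lie within 39.1 and 10.3 kb of one another on chromosome 2, were all between 0.733 and 1.49 FPKM. Ephb2 and Epha8, 150 kb apart on chromosome 5, were at 4.89 and 3.43 FPKM.

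Co-receptors and intracellular partners of each family had higher medians than the 2.45 FPKM of the ligands and receptors. Of 28 measured genes of semaphorin and plexin signalling, 25 reached 1 FPKM, with a median of 13.3 FPKM. Rac1, a small GTPase, was at 58.1 FPKM, Dpysl2, the collapsin response mediator, at 49.0 FPKM and its relative Crmp1 at 30.3 FPKM. Of 24 Eph and ephrin signalling genes, 23 reached 1 FPKM (median 7.27 FPKM), led by Dnm1, a dynamin of endocytosis, at 80.5 FPKM, the adaptor Sdcbp at 56.6 FPKM and Chn1, a Rac-inactivating chimaerin, at 37.8 FPKM. For Slit and Robo signalling it was 22 of 23 (median 8.85 FPKM), led by the deubiquitinase Usp33 at 40.4, the proteoglycan Sdc4 at 29.9 and the kinase Pak1 at 19.9 FPKM. In netrin and Dcc signalling 22 of 24 reached 1 FPKM (median 9.40 FPKM), led by Cdc42 at 92.3, Maged1 at 47.9 and Pitpna at 41.3 FPKM. Neo1, a relative of Dcc that also binds netrins, was at 19.2 FPKM, against 0.794 FPKM for Dcc; it was singled out after its value was seen. Many of these partners serve other pathways, and the share at 1 FPKM or more was 61% of all symbols and 79.9% of the symbols above 0, whose median was 6.37 FPKM.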

How the data were processed

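RNA from rat neural retina was sequenced from libraries made with an Ion Total RNA-seq kit, per the labels' protocols. The authors deposited 1 table of FPKM values with a lower and an upper bound per gene, in Cufflinks format per the file headers; the submitters' processing notes name Cufflinks 2.0.8 and build rn5. Which aligner, annotation and confidence level applied is not given in the sources used here. No column names a sample, so the 3 groups were not compared and no p-value or replicate error is given.

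Symbols were matched ignoring case and FPKM of rows sharing a symbol were summed (Python 3.11.15, numpy 2.4.6, pandas 2.3.3, scipy 1.17.1, matplotlib 3.10.9). Implied fragments are the squared ratio of FPKM to its standard error, with each bound taken as 2 standard errors; they sum to 6124332 over all rows, which assumes counting error alone. Ratios of single genes have exact conditional binomial 95% intervals on rounded fragments, and ratios of sums have intervals from the summed squared errors. Both cover counting error only. They were tried on counts simulated under the same counting model, leaving out single-gene draws without fragments. Such a trial cannot show whether that model holds for these data. Every member is named. Pathway lists and pairs were written from general knowledge. Members and lists were chosen with earlier results of these data known. Promoter windows come from RefSeq (GRCr8), matched by symbol. One marker gene is not reported here.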

Additional observations from a re-analysis of the deposited data

How the results depend on the processing

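Of 123 recomputed values, 82 were identical to the reported ones, most because the setting could not change them, and they say nothing of stability. Of the 41 that differed, 14 left their counting interval or, for counts, moved by more than 1.5 times, and 2 reversed. In implied fragments, the ligand to receptor ratio was 1.48 for semaphorins, 0.0908 for ephrin-A, 1.15 for Slit and 0.675 for netrins, and 0.854 for ephrin-B, where the order reversed; fragments are not divided by length. Without the highest member of each side the ratios were 2.56 for semaphorins, 0.230 for ephrin-A, 1.02 for ephrin-B, 4.08 for Slit and 0.250 for netrins. With members at 1 FPKM or more the ephrin-B ratio was 2.09. With plexins alone as receptors the semaphorin ratio was 3.66. With class 3 semaphorins alone as ligands it reversed to 0.705, but the receptors then still included plexins of other classes. Counting Unc50 as a netrin receptor, chosen after seeing the data, gave 0.430. At a minimum of 5 FPKM, 19 members passed in place of 55, and 15 of the other guidance cues in place of 23. Taking the highest row per symbol could change the level of Robo4 alone, which was 0.0908 FPKM in place of 0.182 FPKM, and gave a Slit ratio of 1.60. Limits on symbol case and row status removed no member. No paired analysis was possible because no value of the table belongs to a known sample. Depth limits some members: 6 rest on fewer than 10 fragments. These are not simply the lowest in FPKM, since they include Efna3 at 1.49 FPKM. For Efna5, 3 fragments already amount to 0.502 FPKM.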

Other observations

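Further guidance cues and inhibitors of axon growth were also measured. Of 25 other cues and receptors, 23 were at 1 FPKM or more and the median was 6.98 FPKM, close to the 6.37 FPKM of all symbols above 0. Of all symbols, 61% were at 1 FPKM or more, and of those above 0, 79.9%. The receptor phosphatases Ptprs and Ptprd stood at 20.6 and 19.4 FPKM and Vldlr, a reelin receptor, at 17.2 FPKM; Draxin (0.295 FPKM, 3 fragments) and Cxcr4 (0.0958 FPKM, 1 fragment) were the members under 1 FPKM. The reelin gene Reln was at 13.6 FPKM, and Cxcl12, the ligand of Cxcr4, was at 14.5 FPKM; these were singled out after their values were seen. Of 23 genes of growth inhibition and its cytoskeletal effectors, 17 were at 1 FPKM or more, near these background shares, and the median was 10.8 FPKM. Rtn4, which encodes the growth inhibitor Nogo, was at 277 FPKM, the actin-severing gene Cfl1 at 150 FPKM and the GTPase gene Rhoa at 80.2 FPKM. The Nogo receptor gene Rtn4r was at 0.881 FPKM, below its relatives Rtn4rl2 at 16.4 FPKM and Rtn4rl1 at 14.1 FPKM. Mag, a myelin inhibitor, was at 0.171 FPKM on 4 fragments, beside the oligodendrocyte markers at 0.664 to 3.06 FPKM.

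Short motifs were searched on both strands of 57 promoter windows of 56 members (Robo1 has a pair of windows). TAATCC, the core bound by the photoreceptor factor Crx, was present in 2 windows (3.51%), those of Robo3 and Robo4, against 7.17% of the 33469 RefSeq windows and 5.28% of those of other symbols at 1 FPKM or more. TATAAA was present in 0 of 57 windows, against 14.2% of all windows and 6.67% of those of other symbols at 1 FPKM or more. GGGCGG was in 56.1%, against 33.1% of all windows and 62.0% of those of other symbols at 1 FPKM or more. A match is a run of letters and not a bound site.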
